A study of Mus musculus with 2 samples.

Results

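The activin, inhibin and AMH receptor genes examined here were *Inha*, *Inhba*, *Inhbb*, *Fst*, *Acvr1b*, *Acvr2a*, *Acvr2b* and *Amhr2*. They were chosen by gene symbol, as 8 of 39695 gene entries, and all 8 had a mean RPKM of at least 1, as had 14831 entries in all. RPKM is the number of reads on a gene per kilobase of its length and per 1000000 counted reads. RNA was sequenced from whole testes of mice aged 9 days, with 1 library from control males and 1 library from *Bcas2F/-;Vasa-Cre* males. The control males were *Bcas2F/-* without *Vasa-Cre*, so in both groups 1 allele of *Bcas2* was deleted and 1 was floxed, and the groups differed by the transgene, which is active in germ cells and removes the floxed allele there. The labels name C57BL/6 as the strain, the paper's methods a mixed line, and the number of testes in each library is not given in the sources used here. The reads counted on genes, as recovered from the RPKM steps, came to 19918750 for the control library and 19331687 for the *Bcas2F/-;Vasa-Cre* library. The paper gives larger totals of clean and of mapped reads for both libraries, which are a different measure.

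Inhibins and activins are dimers that share subunits. An α-subunit, encoded by *Inha*, joins a β-subunit to make an inhibin, whereas a pair of β-subunits, encoded by *Inhba* or *Inhbb*, makes an activin. Activins bind the type II receptors ACVR2A and ACVR2B, which engage type I receptors such as ACVR1B and act through SMAD proteins, while inhibins and follistatin, the product of *Fst*, oppose them. In the juvenile testis, Sertoli cells are a major source of inhibin and of anti-Müllerian hormone (AMH), and AMHR2 is the type II receptor of AMH.

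None of the 8 genes differed by more than 1.5-fold between the libraries, a difference that 3.26% of the 14831 tested genes showed. *Inha*, *Inhbb*, *Acvr1b* and *Acvr2a* were 12.5 to 16.5% higher in *Bcas2F/-;Vasa-Cre* testes by RPKM, each by more than its counting error, and 18.5% of tested genes were likewise higher by more than theirs. Sertoli and Leydig markers had median log2 ratios of 0.11 and 0.19. The medians of germ cell markers and meiotic prophase markers were −0.38 and −0.36. With the Sertoli median set to 0, 2 of the 4 genes, *Acvr1b* and *Acvr2a*, no longer cleared counting error, and *Inha* and *Inhbb* were each at 0.11. At the deposited scaling *Amhr2* was nearly level, and *Inhba*, *Fst* and *Acvr2b* differed by no more than counting error allowed when the fewest possible reads were assumed. Changes are given as log2 ratios of RPKM + 1 in *Bcas2F/-;Vasa-Cre* over control testes. With 1 library a genotype there is no replicate check and no test of the genotypes. In bulk RNA, fewer cells of a type and less RNA per cell cannot be told apart. The 95% Clopper-Pearson intervals are of the RPKM ratio without the added 1, on the log2 scale. They cover counting error only and are not adjusted for the number of genes.

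*Inha* is a protein-coding gene on the plus strand of chromosome 1, at positions 75507077 to 75510366 of GRCm38 (ENSMUSG00000032968), as annotated in GENCODE M21. Its RPKM was 296 in control and 345 in *Bcas2F/-;Vasa-Cre* testes, from 8703 and 9825 reads. This was a log2 ratio of 0.22 (interval 0.18 to 0.26). Among the 505 tested genes within 2-fold of its level, 10 had a log2 ratio as high or higher (1.98%), *Inha* included. *Inha* was thus at the upper edge of the genes with a similar level, although far inside the 1.5-fold threshold.

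*Inhbb*, the gene of the βB-subunit, is on the minus strand of chromosome 1 at 119415465 to 119422248 (ENSMUSG00000037035). It had 61.0 RPKM in control and 71.0 in *Bcas2F/-;Vasa-Cre* testes, from 5168 and 5844 reads. Its log2 ratio was 0.22 (interval 0.17 to 0.27). Of the 3297 genes within 2-fold of the level of *Inhbb*, 4.82% were as high or higher in ratio. The log2 ratios of *Inha* and *Inhbb* differed by −0.0024, and the interval of the difference was −0.07 to 0.07.

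*Inhba*, the gene of the βA-subunit, is on the plus strand of chromosome 13 at 16011851 to 16031621 (ENSMUSG00000041324). Its RPKM was 10.1 in control and 9.76 in *Bcas2F/-;Vasa-Cre* testes, a log2 ratio of −0.05. These values rest on at least 352 and 329 reads, which gave an interval of −0.28 to 0.17. The log2 ratio of *Inhbb* was 0.27 above that of *Inhba* (interval 0.05 to 0.50). *Inhbb* had the higher level of the β-subunit genes in both libraries, by 6.01 times in control and 7.28 times in *Bcas2F/-;Vasa-Cre* testes. The RPKM of *Inha* over that of *Inhba* and *Inhbb* together was 4.17 in control and 4.26 in *Bcas2F/-;Vasa-Cre* testes, so the α-subunit and the summed β-subunits were higher by nearly the same factor.

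*Fst* is on the minus strand of chromosome 13 at 114452290 to 114458951 (ENSMUSG00000021765). It had the lowest level of the 8 genes, at 4.04 RPKM in control and 4.54 in *Bcas2F/-;Vasa-Cre* testes, with at least 188 and 205 reads. The log2 ratio of *Fst* was 0.14, and its interval of −0.12 to 0.46 held 0. The β-subunits together exceeded *Fst* by 17.6 times in control and 17.8 times in *Bcas2F/-;Vasa-Cre* testes. *Inha* exceeded *Fst* by 73.3 and 75.9 times.

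**Figure D1:**
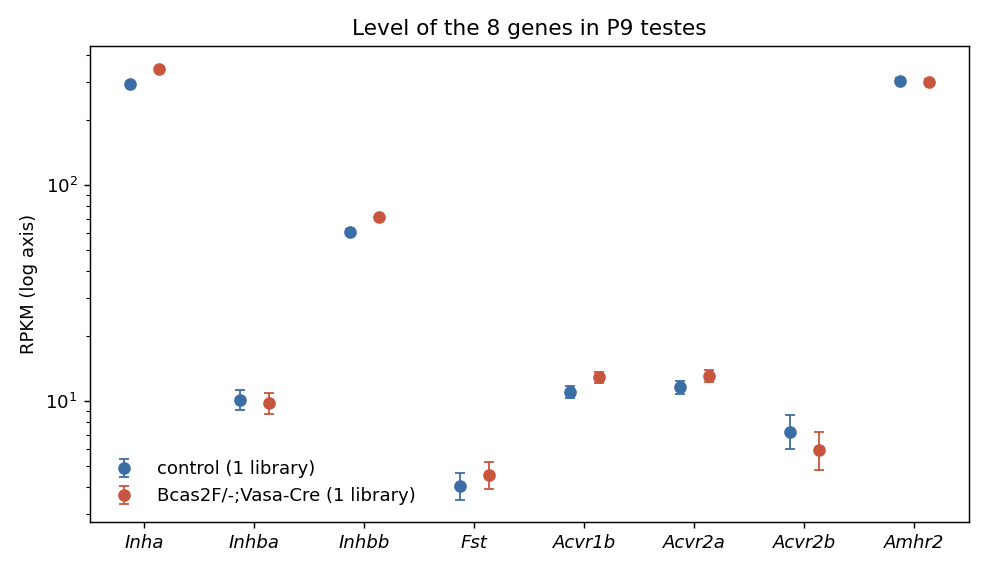
RPKM of the 8 genes on a log axis in the control library (blue) and the *Bcas2F/-;Vasa-Cre* library (red). Points are single libraries and bars are 95% Poisson intervals for counting error, which lie inside the point for *Inha*, *Inhbb* and *Amhr2*. *Inha* and *Amhr2* sit between 296 and 345 RPKM in both libraries, and *Fst* is lowest at 4.04 and 4.54.

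*Acvr1b*, a type I receptor gene, is on the plus strand of chromosome 15 at 101174067 to 101213684 (ENSMUSG00000000532). Its RPKM was 11.1 in control and 12.9 in *Bcas2F/-;Vasa-Cre* testes, from 966 and 1089 reads. The log2 ratio was 0.20 (interval 0.09 to 0.34). At this level 14.6% of 4918 genes within 2-fold were as high or higher in ratio.

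*Acvr2a*, a type II receptor gene, is on the plus strand of chromosome 2 at 48814109 to 48903269 (ENSMUSG00000052155). It had 11.6 RPKM in control and 13.1 in *Bcas2F/-;Vasa-Cre* testes, backed by 802 and 876 reads. Its log2 ratio was 0.16 (interval 0.03 to 0.31), the smallest of the 4 that cleared counting error. In the exact binomial test on reads, adjusted for the number of genes, *Acvr2a* did not reach an adjusted p under 0.05. The 3′ end of *Acvr2a* overlaps the protein-coding gene *Orc4* on the other strand by 446 bases. *Orc4* went from 56.6 to 70.0 RPKM, and because counting by strand is not stated, reads in the shared stretch cannot be assigned. *Inhba*, *Fst* and *Acvr2b* also overlap antisense genes or pseudogenes on the other strand in GENCODE M21, for which no value was used here.

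*Acvr2b*, the other type II receptor gene of activins, is on the plus strand of chromosome 9 at 119402118 to 119434995 (ENSMUSG00000061393). It was the member with the largest difference, at 7.21 RPKM in control and 5.92 in *Bcas2F/-;Vasa-Cre* testes, a log2 ratio of −0.25. The RPKM values fix only the smallest whole numbers of reads that could lie behind them, 123 and 98, and with these the interval ran from −0.68 to 0.11. With 246 and 196 reads, the multiple nearest to the annotated length, it ran from −0.56 to −0.01 and no longer held 0. Of 4047 genes within 2-fold of its level, 11.0% were as low or lower. The type II receptor genes had ratios on opposite sides of 0, with *Acvr2a* at 1.61 times the RPKM of *Acvr2b* in control and 2.21 times in *Bcas2F/-;Vasa-Cre* testes. Their log2 ratios differed by 0.46 (interval 0.03 to 0.88).

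**Figure D2:**
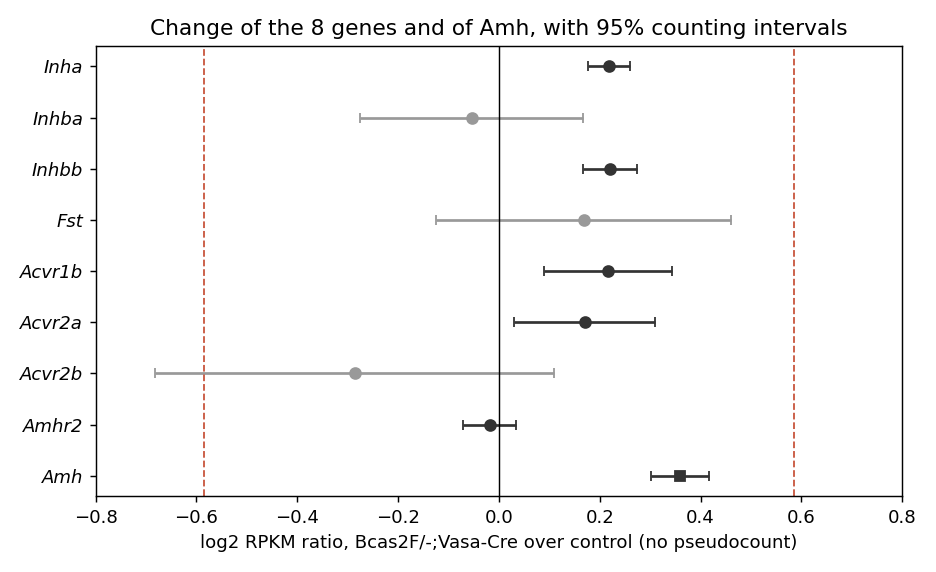
Log2 RPKM ratio in *Bcas2F/-;Vasa-Cre* over control testes, without a pseudocount, for the 8 genes (circles) and for *Amh* (square), with 95% intervals for counting error from 1 library a genotype. Grey marks genes whose reads were taken as the fewest that fit, and dashed lines are at 1.5-fold, which no point passes.

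*Amhr2* is on the plus strand of chromosome 15 at 102445367 to 102454633 (ENSMUSG00000023047). Its RPKM was 306 in control and 302 in *Bcas2F/-;Vasa-Cre* testes, from 5910 and 5663 reads. The log2 ratio was −0.02 (interval −0.07 to 0.03), and 51.3% of 546 genes within 2-fold of its level were as low or lower. *Amh*, which encodes the ligand of AMHR2, was higher where its receptor was nearly level, with 134 RPKM in control and 172 in *Bcas2F/-;Vasa-Cre* testes from 4454 and 5544 reads. The log2 ratio of *Amh* was 0.36 (interval 0.30 to 0.42), and 0.663% of the genes within 2-fold of its level were as high or higher. *Amhr2* stood at 2.28 times the RPKM of *Amh* in control and 1.75 times in *Bcas2F/-;Vasa-Cre* testes. The log2 ratio of *Amhr2* minus that of *Amh* was −0.38 (interval −0.45 to −0.30). *Inha* and *Amhr2*, with similar levels in the control library, also parted, by 0.24 (interval 0.17 to 0.30). In all, 6 such pairs were compared, without adjustment for their number. Only *Inhbb* against *Inhba* was among the planned ratios. The remaining pair, *Acvr1b* against *Acvr2b*, differed by 0.50 (0.08 to 0.92).

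The order by level changed at the top. In control testes it was *Amhr2*, *Inha*, *Inhbb*, *Acvr2a*, *Acvr1b*, *Inhba*, *Acvr2b* and *Fst*. The Poisson intervals of *Amhr2* and *Inha* overlapped there, as did those of *Acvr2a* with *Acvr1b* and of *Acvr1b* with *Inhba*. In *Bcas2F/-;Vasa-Cre* testes *Inha* came before *Amhr2* and their intervals were apart, while *Acvr2a* and *Acvr1b* overlapped again, and so did *Acvr2b* and *Fst*. The levels depend on the gene length used. The RPKM of *Amhr2* corresponds to a length of 971 bases, near the mean of its 5 annotated transcripts, whereas the longest has 1938 bases. Per kilobase of the longest transcript, a length chosen after the values were seen, *Amhr2* would have 153 RPKM in control and 151 in *Bcas2F/-;Vasa-Cre* testes, below *Inha* in both. *Inha* has a single annotated transcript of 1475 bases and keeps its values. The same change of length would bring *Acvr2a* to 7.08 and 7.97 RPKM. For *Inhba*, *Fst* and *Acvr2b*, the length behind the RPKM could not be matched to the annotation. They were not recomputed, and ratios of level that include them carry this limit.

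Past 1.5-fold in either direction were 0 of the 8 genes, against 1.69% of all tested genes lower and 1.57% higher. These were 251 lower and 233 higher genes, and 429 and 163 with the median of the Sertoli markers set to 0. Of the 8 genes, 5 had a log2 ratio above 0, against 53.7% of all tested genes, and their median was 0.15 against 0.02. Intervals for counting error lay wholly above 0 for 4 genes, *Inha*, *Inhbb*, *Acvr1b* and *Acvr2a*, against 18.5% of tested genes, and wholly below 0 for 0, against 16.4%. This count holds at the deposited scaling. An interval narrows as the reads of a gene increase, and the share among genes with similar numbers of reads was not taken. With the median of the Sertoli markers set to 0, the interval lay wholly above 0 for 2 genes, *Inha* and *Inhbb*, against 6.43% of tested genes, and wholly below 0 for 1, *Amhr2* (−0.18 to −0.07), against 31.5%. Those of *Acvr1b* (−0.02 to 0.23) and *Acvr2a* (−0.08 to 0.20) then held 0. With the reads nearest to the annotated length, *Acvr2b* was also wholly below 0 at the deposited scaling. The study's targeted gene, *Bcas2*, had 39.5 RPKM in control and 25.7 in *Bcas2F/-;Vasa-Cre* testes, a log2 ratio of −0.60.

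**Figure D3:**
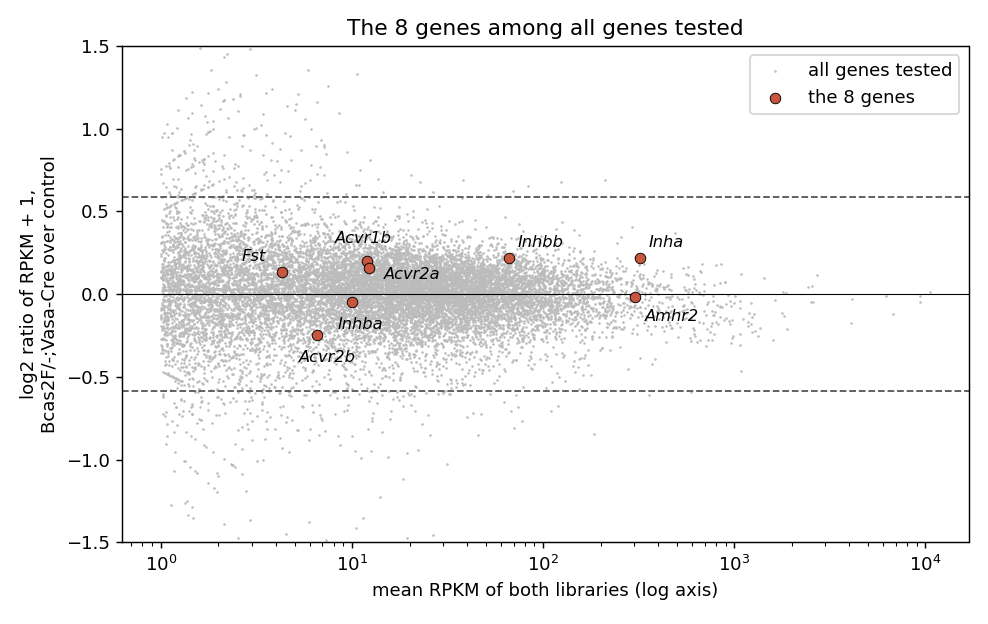
Log2 ratio of RPKM + 1 in *Bcas2F/-;Vasa-Cre* over control testes against the mean RPKM of both libraries (log axis). Grey points are the 14831 tested genes, of which 37 lie beyond the vertical axis, red points are the 8 genes and dashed lines are at 1.5-fold. All 8 lie between −0.25 and 0.22, and the spread of the grey points narrows towards high RPKM.

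With 2 libraries a pattern is a pair of levels, and likeness was taken as the distance between log2(RPKM + 1) pairs. The nearest genes to *Inha*, the most abundant member by the mean of both libraries, were *Kctd14*, the integrin gene *Itgb1* and *Usmg5*, at distances of 0.04 to 0.08 and log2 ratios of 0.11 to 0.18. The nearest to *Acvr2b* were the kinesin gene *Kif21b*, the α-fetoprotein gene *Afp* and the formin gene *Diaph3*, at distances of 0.00 to 0.03.

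Upstream sequence of 250 bases before the annotated start was taken from RefSeq (GRCm38.p6) for 7 of the 8 genes. *Fst* had no entry. *Amhr2* and *Inhbb* are shown because both are well expressed and differed in ratio, and because their starts in RefSeq and GENCODE coincide. The stretches cover chr15:102445117-102445366 on the plus strand and chr1:119422249-119422498 on the minus strand. Capitals mark AGGTCA, the half-site of nuclear receptors such as NR5A1, a regulator of gonadal genes, searched on both strands.
Amhr2: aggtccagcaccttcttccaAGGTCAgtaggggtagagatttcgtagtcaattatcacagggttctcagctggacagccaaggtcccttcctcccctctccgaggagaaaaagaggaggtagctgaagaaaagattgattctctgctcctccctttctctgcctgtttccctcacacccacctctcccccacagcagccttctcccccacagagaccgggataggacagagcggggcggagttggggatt
Inhbb: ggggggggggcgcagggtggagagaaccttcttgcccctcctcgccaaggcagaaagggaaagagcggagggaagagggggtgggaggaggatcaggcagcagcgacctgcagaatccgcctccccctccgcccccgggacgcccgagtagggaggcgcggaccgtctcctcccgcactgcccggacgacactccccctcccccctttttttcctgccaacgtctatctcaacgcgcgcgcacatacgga
The stretch of *Amhr2* held AGGTCA once, beginning 230 bases before the start, and that of *Inhbb* held none, while 14.0% of 32851 such windows held it. *Nr5a1*, named here after its values were seen, had 78.9 RPKM in control and 79.8 in *Bcas2F/-;Vasa-Cre* testes. A match is a description of the letters, not a binding site. The stretch of *Inhbb* was 68.0% G and C with 21 CG dinucleotides, against 55.2% and 5 for *Amhr2* and a median of 52.4% and 6 over all windows. The receptor genes *Acvr1b*, *Acvr2a* and *Acvr2b* had 78.8, 82.0 and 72.8% G and C with 42, 49 and 24 CG dinucleotides, and *Inhba* had 43.2% with 3. None of these 4 held AGGTCA. The RefSeq start of *Inha* lies 532 bases inside the GENCODE gene, so its window is not upstream of the gene and is not shown. That window held AGGTCA once. Any link between the motif and the ratios was not tested.

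Other genes of the pathway were listed as ligands, receptors, binding proteins and co-receptors, SMADs with their regulators, and gonadal regulators. Of 66 listed genes, 65 were in the files and 48 reached the minimum mean RPKM. Past 1.5-fold were 1 lower gene and 0 higher genes, 35 had a log2 ratio above 0, and their median was 0.08, or −0.03 with the median of the Sertoli markers set to 0. The gene past the threshold was *Bmp7*, a bone morphogenetic protein, with 10.4 RPKM in control and 6.34 in *Bcas2F/-;Vasa-Cre* testes from 480 and 285 reads. Its log2 ratio was −0.63 (interval −0.93 to −0.49). Among the 11 ligands measured, *Bmp2* and *Amh* were highest in ratio, at 0.41 and 0.36, and *Tgfb1* followed *Bmp7* at the lower end with −0.09. *Bmp2*, another bone morphogenetic protein, had 0.777 RPKM in control and 1.37 in *Bcas2F/-;Vasa-Cre* testes, from 55 and 94 reads. Without the added 1 this was 1.76-fold, a log2 ratio of 0.82 (interval 0.32 to 1.32), and *Bmp2* passed 1.5-fold with a pseudocount of 0.1 or 0.01.

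Among the 7 other receptors, whose median was 0.11, *Acvr1*, a type I receptor, went from 8.57 to 10.6 RPKM and *Acvrl1*, an endothelial type I receptor, from 28.6 to 34.6 RPKM, log2 ratios of 0.28 and 0.27. The lowest were *Tgfbr1* at −0.04 and *Bmpr2* at −0.0010. The 10 binding proteins and co-receptors had a median of 0.03, with *Lefty1*, an antagonist of NODAL, at 0.35 and *Dcn* at 0.13 at the upper end, and *Eng* at −0.08 and *Fstl3*, a relative of *Fst*, at −0.0004 at the lower end. *Lefty1* rested on 43 and 59 reads and its interval of −0.09 to 1.10 held 0. Of the 11 SMADs and regulators, with a median of 0.07, *Smad6*, an inhibitory SMAD, went from 6.91 to 9.96 RPKM, at a log2 ratio of 0.47 (interval 0.24 to 0.82). *Smad3*, which transmits activin signals, had a ratio of 0.20, and *Skil* and *Smurf1* were lowest at −0.11 and −0.10. The other SMADs of activin signalling, *Smad2* and *Smad4*, were at −0.01 and 0.07, with intervals that held 0. Both were named after their values were seen. The 9 gonadal regulators had a median of 0.11, from −0.02 for *Nr0b1* and 0.0044 for *Fshr*, the FSH receptor, to 0.18 for *Sox8* and 0.29 for *Sox9*. *Wt1*, *Sox9* and *Fshr* are also among the Sertoli markers. *Wt1* is the middle gene of the gonadal regulators and of the Sertoli markers, so these lists share their median. Setting the Sertoli median to 0 thus subtracts the log2 ratio of *Wt1*. *Inhbe*, *Mstn* and *Grem1* were listed at 0 in both libraries.

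**Figure D4:**
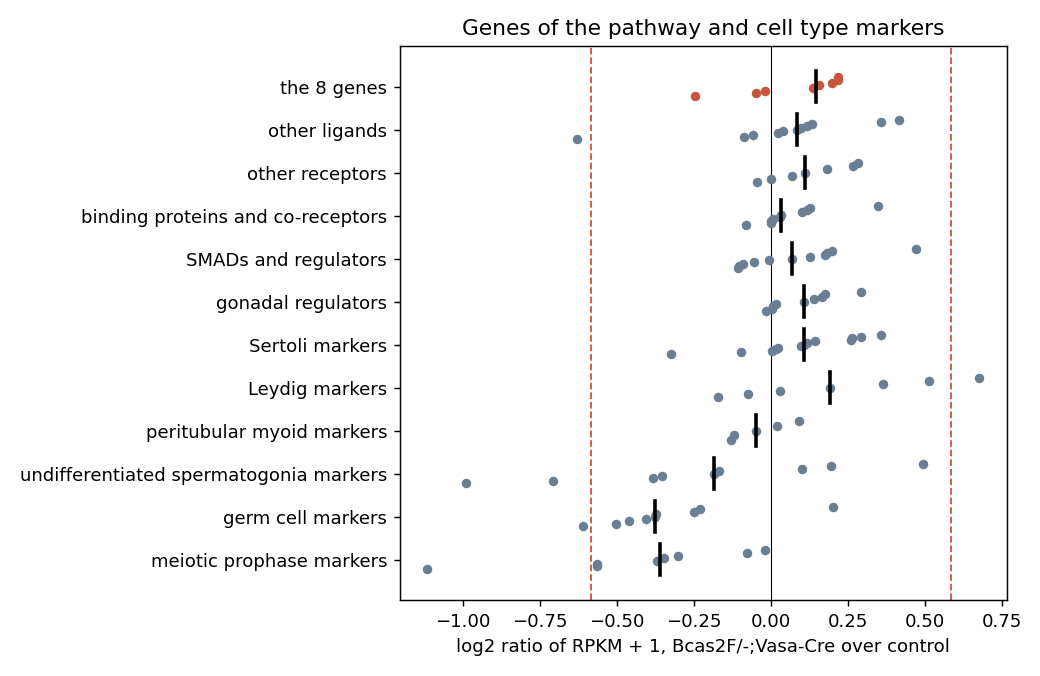
Log2 ratio of RPKM + 1 in *Bcas2F/-;Vasa-Cre* over control testes for the 8 genes (red), the other lists of the pathway and cell type markers. Points are genes that reached a mean RPKM of 1, black bars are list medians, and dashed lines are at 1.5-fold. The 8 genes, the Sertoli markers and the Leydig markers have medians of 0.15, 0.11 and 0.19, and the germ cell markers one of −0.38.

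By list medians, Sertoli and Leydig markers differed in the same direction as most of the 8 genes, and germ cell markers in the other direction. Of 13 Sertoli markers above the minimum, 11 had a log2 ratio above 0 and 0 were past 1.5-fold, and the summed RPKM of the list was 5652 in control and 6037 in *Bcas2F/-;Vasa-Cre* testes. *Amh* is among these markers, and *Rhox5* was listed at 0 in both libraries. Of 26 markers of undifferentiated spermatogonia, germ cells and meiotic prophase, 22 had a log2 ratio below 0 and 4 were more than 1.5-fold lower (*Nanos3*, *Sall4*, *Stra8* and *Smc1b*), with a summed RPKM of 1061 in control and 807 in *Bcas2F/-;Vasa-Cre* testes. The 4 above 0 (*Nanos2*, *Sohlh2*, *Etv5* and *Id4*) had log2 ratios of 0.49, 0.20, 0.20 and 0.10. Without the added 1, *Nanos2* was 1.81-fold higher, from at least 29 and 51 reads. The medians of the undifferentiated spermatogonia, germ cell and meiotic prophase lists were −0.19, −0.38 and −0.36. By real-time RT-PCR at the same age, the paper found *Stra8*, *Dazl*, *Kit*, *Ddx4*, *Sohlh1*, *Sohlh2*, *Nanos2* and *Pou5f1* similar in both groups. It found *Dmc1*, *Sycp1*, *Sycp3* and *Smc1b* lower. In the libraries here those meiotic genes were lower as well. *Stra8*, *Sohlh1*, *Dazl*, *Kit* and *Ddx4*, however, had log2 ratios of −0.61, −0.46, −0.40, −0.37 and −0.25, with intervals below 0. RT-PCR values were set against *Gapdh*, and RPKM to the counted reads of 1 library a genotype. The paper also counted spermatogonia by staining at slightly later ages and found no significant difference in number. Leydig markers had a median of 0.19, with 5 of 7 above 0 and 1 past 1.5-fold (*Cyp17a1*), and a summed RPKM of 489 and 548. Peritubular myoid, endothelial and macrophage markers had medians of −0.05, −0.06 and −0.16, with 0 past 1.5-fold. The 4 red cell markers had a median of −0.32, with 1 more than 1.5-fold lower (*Slc4a1*). Its RPKM was 15.7 in control and 0.607 in *Bcas2F/-;Vasa-Cre* testes. Of those 4 markers, 1 had a log2 ratio above 0, and their summed RPKM was 782 in control and 775 in *Bcas2F/-;Vasa-Cre* testes. The markers in parentheses were named after their values were seen. The part of these shifts in the values of the 8 genes was not tested. With the median of the Sertoli markers set to 0, *Inha*, *Inhbb* and *Acvr1b* had log2 ratios of 0.11, 0.11 and 0.09, *Acvr2a* 0.05 and *Fst* 0.03, *Inhba* and *Amhr2* −0.16 and −0.13, and *Acvr2b* −0.36.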

How the data were processed

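The authors removed adaptor and low-quality sequences, aligned the paired-end reads with TopHat2 2.0.9 (build mm10, per the labels), tallied the reads of each gene with HTSeq, and deposited 1 RPKM value for each gene and library. The annotation release and gene lengths are not given in the sources used here. Symbols and positions came from GENCODE M21, matched by identifier for 37606 of 39695 entries.

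Genes that reached a mean RPKM of 1 were compared with a pseudocount of 1, which understates the change of low genes. The members and lists were chosen with earlier results of these data known. Named were all members, the 2 lowest and 2 highest genes of each pathway list, genes past 1.5-fold, *Bcas2*, *Amh* and the 3 genes nearest to the most abundant and to the most changed member.

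Each read adds a fixed step to a gene's RPKM, and 99.8% of 22040 genes above 0 in both libraries gave a ratio of whole reads (relative tolerance 3e-08). Multiples followed the mean transcript length, which matched within 5% for 5 members, and the fewest reads were used for *Inhba*, *Fst* and *Acvr2b*. A pair of reads may count as 1. Intervals are Clopper-Pearson or Poisson at 95%, and from odds ratios for pairs. The steps were tested on simulated libraries built with those same mean transcript lengths. That test cannot check the multiple where the length had no match, and in the data 62.75% of tested genes had one.

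Alternatives were pseudocounts of 0.1 and 0.01, 3 other scalings, other minimums on RPKM and an exact binomial test on reads (Benjamini-Hochberg), which compares libraries and not genotypes. The longest transcript and the nearest multiple of reads were added after seeing the data. Versions were Python 3.11.15, scipy 1.17.1, numpy 2.4.6, matplotlib 3.10.9 and pandas 2.3.3.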

Additional observations from a re-analysis of the deposited data

How the results depend on the processing

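With 1 library a genotype, precision is limited to counting error, and the spread between animals is unknown. Of 8 alternatives, 5 (pseudocounts and scalings) can change the log2 ratio of a gene. Under those 5, 0 of the 8 genes passed 1.5-fold and all but *Amhr2* kept their sign. The other 3 change only which genes are tested or called, and *Fst* was not tested with a minimum of 5. *Amhr2*, at −0.02, was at 0.01 when RPKM were made to add up to 1000000 in each library. With the median of the Sertoli markers set to 0, which subtracts 0.11 from each gene, the log2 ratios moved to 0.11 for *Inha*, 0.11 for *Inhbb* and −0.13 for *Amhr2*, beyond their counting error. Under that setting counting intervals lay wholly above 0 for 2 genes and wholly below 0 for 1, against 4 and 0 as reported, and with the nearest multiple of reads for 4 and 1. With a pseudocount of 0.1 or 0.01, 1 other gene of the pathway lists, *Bmp2*, was more than 1.5-fold higher, against 0 as reported. With the length of the longest transcript, the log2 ratio of *Amhr2* over *Inha* RPKM was −0.95 in control and −1.19 in *Bcas2F/-;Vasa-Cre* testes, against 0.04 and −0.19.

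Among all tested genes, 251 lower and 233 higher genes were past 1.5-fold. These counts were 457 and 454 with a pseudocount of 0.1, 485 and 491 with 0.01, 468 and 511 without a minimum on mean RPKM, 104 and 46 with a minimum of 5, and 161 and 73 when an adjusted p under 0.05 in the exact binomial test on reads was also asked for. They were 429 and 163 with the median of the Sertoli markers set to 0, and 356 and 434 with RPKM rescaled, where 16133 genes in place of 14831 reached the minimum. Each move follows from the changed setting, because the values of the libraries were the same throughout. No paired analysis was possible because each genotype has 1 library.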
